A study of Mus musculus with 4 samples.

Results

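Dense clusters of Flag ChIP-seq peaks away from promoters were examined in lineage-negative bone-marrow cells, the fraction of marrow that is left after cells with mature-lineage surface markers are removed. A cluster, or joined region, was built from the peaks of replicate 2 on chromosomes 1 to 19 whose summit lay more than 1000 bp from any end of a protein-coding gene in mm10. Neighbouring peaks separated by 12500 bp or less were joined, and joined regions of 3 or more peaks were kept. This gave 1355 regions holding 5558 peaks, which is 34.1% of the 16306 replicate 2 peaks away from gene ends. Replicate 2 had 25539 autosomal peaks in all. The regions were selected on replicate 2 alone, so their number, span and replicate 2 enrichment are descriptions, and replicate 1 is the measure that the selection did not use.

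The cells came from C57BL/6 mice 8 weeks old with the genotype 3xFlag-Nynrin-Tg, and every library of the series shares that transgene. Flag ChIP was done in 2 libraries and 2 input libraries were made beside them. The inputs were not analysed here. Neither untagged cells nor a control antibody entered, so a peak is a site as the authors' caller gave it. The promoter driving the transgene is not given in the sources used here, nor is it stated whether the 2 libraries came from separate animals, so their overlap may be partly technical. Replicate 1 held 12627 autosomal peaks, of which 6287 lay away from gene ends. The deposited lists give no read counts, so the depth behind a peak is unknown, and they measure no RNA, so the identity of the cells could not be checked against marker expression.

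Nynrin encodes a protein with an NYN domain, of a family with nuclease folds, joined to a part related to retroviral integrases. In blood cells, peaks of transcription factors and coactivators that crowd over many kilobases away from promoters are often found at genes that define the cell type, and the joining distance used here is the one in common use for stitching such enhancers. No histone mark or expression measurement was used here, so the regions are described by their peaks and by the genes inside or nearest, and are not called enhancers.

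Some peaks of the regions cover a start site that RefSeq lists inside or beyond a gene, away from the outer ends used for the selection, so the regions are not free of promoters. A summit lay within 1000 bp of such a listed start in 523 member peaks (9.41%) and in 1234 other peaks away from gene ends (11.5%). Of 13561 listed start sites more than 1000 bp from a protein-coding gene end, 431 lay inside a peak of a joined region, and 212 of these also lay inside a replicate 1 peak. They belonged to 366 genes, with 282 of the sites at protein-coding genes and 149 at long noncoding RNAs. The RefSeq windows of 300 bases (GRCm38.p6, 250 bases before the start site in lower case and 50 bases from the start site on in capitals) are shown for 5 sites that lie inside peaks of both replicates. Vapa, which encodes a membrane protein of the endoplasmic reticulum, and Dennd4a, which encodes a regulator of Rab GTPases, have covered sites that rank among the highest in both lists. Smim14 ranks between them, and the noncoding gene Gm36459 is tied with Dennd4a under the same peak. H3f3b, a gene for histone H3.3, Malat1, a nuclear long noncoding RNA, and Mcl1, a gene for a survival protein of the BCL2 family, were chosen after their values were seen.
Vapa, chr17:65613506-65613805, minus strand: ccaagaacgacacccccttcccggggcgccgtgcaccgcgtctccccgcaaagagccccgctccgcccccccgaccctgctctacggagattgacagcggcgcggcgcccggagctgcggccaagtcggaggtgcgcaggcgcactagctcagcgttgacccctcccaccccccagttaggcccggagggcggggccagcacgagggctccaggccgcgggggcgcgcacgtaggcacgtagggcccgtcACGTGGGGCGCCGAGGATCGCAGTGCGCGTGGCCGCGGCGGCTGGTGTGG
Dennd4a, chr9:64810761-64811060, plus strand: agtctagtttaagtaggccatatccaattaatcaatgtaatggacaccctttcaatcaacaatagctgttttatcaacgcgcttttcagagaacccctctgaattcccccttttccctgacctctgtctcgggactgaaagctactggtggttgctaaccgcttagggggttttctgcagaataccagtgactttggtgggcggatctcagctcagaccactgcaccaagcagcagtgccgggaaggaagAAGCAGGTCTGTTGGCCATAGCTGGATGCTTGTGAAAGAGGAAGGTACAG
H3f3b, chr11:116024455-116024754, minus strand: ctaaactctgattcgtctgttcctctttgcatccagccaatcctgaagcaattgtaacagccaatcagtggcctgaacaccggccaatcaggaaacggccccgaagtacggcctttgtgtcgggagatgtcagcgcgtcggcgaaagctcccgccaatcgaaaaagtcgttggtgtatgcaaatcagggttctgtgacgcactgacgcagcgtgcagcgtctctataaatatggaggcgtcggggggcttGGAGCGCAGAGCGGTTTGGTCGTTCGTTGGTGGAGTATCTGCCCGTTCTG
Malat1, chr19:5802623-5802922, minus strand: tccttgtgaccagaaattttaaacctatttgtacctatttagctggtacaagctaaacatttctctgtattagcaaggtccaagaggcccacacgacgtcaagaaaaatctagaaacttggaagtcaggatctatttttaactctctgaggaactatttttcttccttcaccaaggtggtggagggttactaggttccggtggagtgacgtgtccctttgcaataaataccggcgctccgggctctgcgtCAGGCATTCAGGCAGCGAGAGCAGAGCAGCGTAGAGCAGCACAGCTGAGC
Mcl1, chr3:95658471-95658770, plus strand: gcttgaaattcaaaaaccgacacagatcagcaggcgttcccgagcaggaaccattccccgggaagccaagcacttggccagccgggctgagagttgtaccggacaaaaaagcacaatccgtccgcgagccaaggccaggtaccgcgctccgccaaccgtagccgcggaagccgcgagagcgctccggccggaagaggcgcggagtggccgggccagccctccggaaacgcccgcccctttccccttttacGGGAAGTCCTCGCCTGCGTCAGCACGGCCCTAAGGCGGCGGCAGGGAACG

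The Vapa site lay under a peak whose fold enrichment was 7.94 in replicate 1 and 14.1 in replicate 2, and the Dennd4a site under peaks of 8.75 and 11.4. The H3f3b, Malat1 and Mcl1 sites lay under peaks with fold enrichments of 6.97, 6.00 and 5.94 in replicate 1 and of 14.6, 14.0 and 13.0 in replicate 2. These values come from the authors' caller, describe a peak within its own list, and were not compared in size between lists. The shown windows range from 47.0% G and C at Malat1 to 75.3% at Vapa, with 10 and 40 CG dinucleotides, and the Dennd4a window holds 6. Over all 431 covered sites the median was 60.0% G and C with 18 CG dinucleotides, against 48.7% and 4 over the 13130 other listed sites away from gene ends. Covered sites are thus richer in CG than the remaining sites.

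Short motifs, 9 in all, were counted on both strands of the same windows. The ETS motif CCGGAAG was present in 11.8% of covered windows, 3.77% of the other windows away from gene ends and 9.0% of all listed promoters. The PU.1-type motif GAGGAAG, which shares the letters GGAAG with the ETS motif, was present in 19.03% of covered windows, 13.4% of the others and 13.4% of all. The RUNX motif TGTGGT was found in 13.0%, 20.1% and 16.7% of the same 3 sets, and the GATA motif AGATAA in 7.42%, 14.1% and 11.2%. The E-box CACGTG was found in 9.51% of covered windows and 5.53% of the others, the AP-1 motif TGANTCA in 7.42% and 9.42%, and the C/EBP motif TTGCNNAA in 11.6% and 12.3%. The CCAAT box CCAAT was found in 27.8% and 36.0%, and the CRE motif TGACGTCA in 0.696% and 0.967%. Over all listed promoters these 5 shares were 7.14%, 7.84%, 10.9%, 37.3% and 1.83%. The ETS, PU.1-type and E-box letters were thus more frequent in covered windows than in the others, and the remaining 6 less frequent. The CRE share rests on 3 covered windows, and the 2 C/EBP shares lie close together. Some windows overlap, since start sites of a gene can lie a few bases apart, so the same letters can be counted repeatedly. The sets also differ in base composition, whose part in these shares was not tested. The matches describe letters in a window and not bound sites.

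MicroRNAs are short RNAs that pair through their seed with target messages. Of 919 autosomal hairpins listed by RefSeq, 33 (3.59%) lay inside 28 of the regions, and 9 hairpins touched a peak of a region. By the gene table, microRNA genes were touched by 7 of 5558 member peaks (0.126%) and by 15 of 10748 other peaks away from gene ends (0.140%), of which 2 and 10 overlapped replicate 1. The mature sequences of the blood and signal-responsive microRNAs among them are shown, chosen after their positions were seen and leaving out others such as Mir192, Mir193a, Mir194-2 and Mir339, with the seed (bases 2 to 8) in capitals.
mmu-miR-142a-5p: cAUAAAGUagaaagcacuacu
mmu-miR-142a-3p: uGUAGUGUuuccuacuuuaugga
mmu-miR-23a-3p: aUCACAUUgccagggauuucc
mmu-miR-132-3p: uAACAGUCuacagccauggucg
mmu-miR-212-3p: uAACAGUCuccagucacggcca
mmu-miR-21a-5p: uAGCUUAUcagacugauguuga
mmu-miR-126a-3p: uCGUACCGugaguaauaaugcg

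The miR-132-3p and miR-212-3p sequences share the seed AACAGUC, and the other seeds shown differ from each other. Mir142, a microRNA gene of blood cells, lay in a region of 6 peaks at Tspoap1 (chr11:87747916-87765726), and the peak over its hairpin reached 6.03 in replicate 1 and 11.4 in replicate 2 (fold enrichment). That peak is 6809 bp wide, and 3 of the region's peaks overlapped replicate 1. Mir23a lay at the edge of a region of 7 peaks near Zswim4 (chr8:84183334-84208550), 5 of them with a replicate 1 peak, although the peak nearest to the hairpin had none. Mir132 and Mir212, neighbours on chromosome 11, touched a peak of 5.31 in replicate 2 with no replicate 1 peak, in a region of 6 peaks at Smg6 and Hic1. Mir21a lay in a region of 6 peaks at Vmp1, its nearest summit 1450 bp away. Mir126a, a microRNA of stem and endothelial cells that lies in Egfl7, was in a region of 4 peaks of which 0 overlapped replicate 1.

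Most regions were small, and a few were large. There were 683 regions of 3 peaks (50.4%), 326 of 4 peaks and 154 of 5 peaks, while 23 regions held 10 to 17 peaks. The median span was 15290 bp, with a middle range of 9796 to 21486 bp and extremes of 1599 and 95298 bp, and the regions together covered 23.0 Mb. Peaks filled a median of 16.4% of the span, and neighbouring peaks were a median of 3834 bp apart. At the edge of the rule, the largest gap inside a region was 12493 bp and the smallest gap not joined was 12502 bp. Just outside were 1949 pairs of joined peaks, and 6850 peaks were joined to none. The nearest member summit was 1001 bp from a gene end, and the farthest excluded one 1000 bp. The number of regions rests on the joining distance and on the cutoff, with 688 regions when peaks were joined within 5000 bp and 362 when both lists were cut at a −log10 q of 5.

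**Figure D1:**
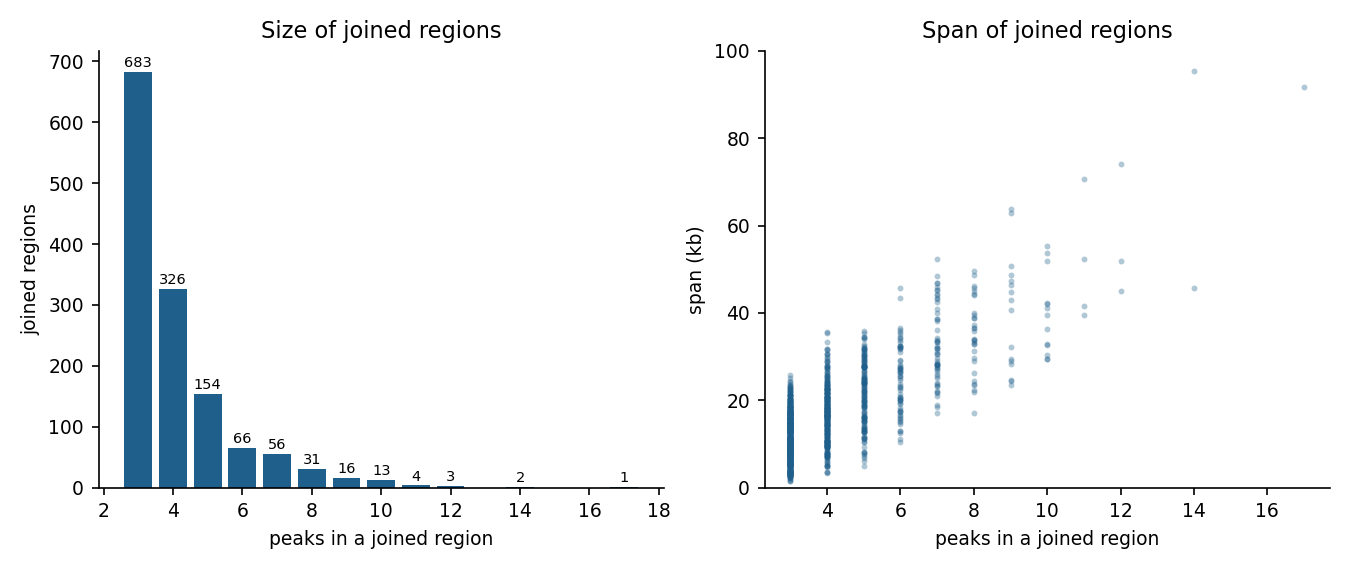
Left, number of joined regions (y axis) by the number of peaks in each (x axis), with the counts printed above the bars. Right, span in kilobases of each of the 1355 regions against its number of peaks. Regions of 3 peaks are the most common at 683, and the longest region spans 95.3 kb.

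The overlap with replicate 1 was the first measure that the selection did not use. Of the 5558 member peaks, 1761 overlapped a replicate 1 peak by at least 1 bp (31.7%, exact Clopper-Pearson 95% interval 30.5 to 32.9%), against 2954 of the 10748 other peaks away from gene ends (27.5%, 26.6 to 28.3%). The share over all 16306 peaks away from gene ends was 28.9%, and that of the peaks at gene ends was 65.1%. Intervals cover counting error only, and peaks of 1 library are not replicates of a condition. Member peaks were also stronger in replicate 2: of 4 classes of −log10 q cut at the quartiles of all peaks away from gene ends, the strongest held 29.0% of the members and 22.8% of the other peaks.

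Within each of these 4 classes, members and other peaks had replicate 1 overlaps close to each other. In the weakest class they were 9.91% and 9.83%, in the second 17.4% and 17.1%, in the third 30.9% and 28.6%, and in the strongest 64.4% and 63.3%. The exact intervals overlapped in each class. If other peaks had the strengths of the members, their share would be 30.8% over the 4 classes and 31.2% over 20 finer ones, beside the 31.7% measured for members. Lying in a dense cluster was therefore accompanied by little replicate 1 overlap beyond that of equally strong peaks elsewhere. Fold enrichment in replicate 1, where a partner was present, had a median of 4.04 for members and 4.13 for other peaks.

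**Figure D2:**
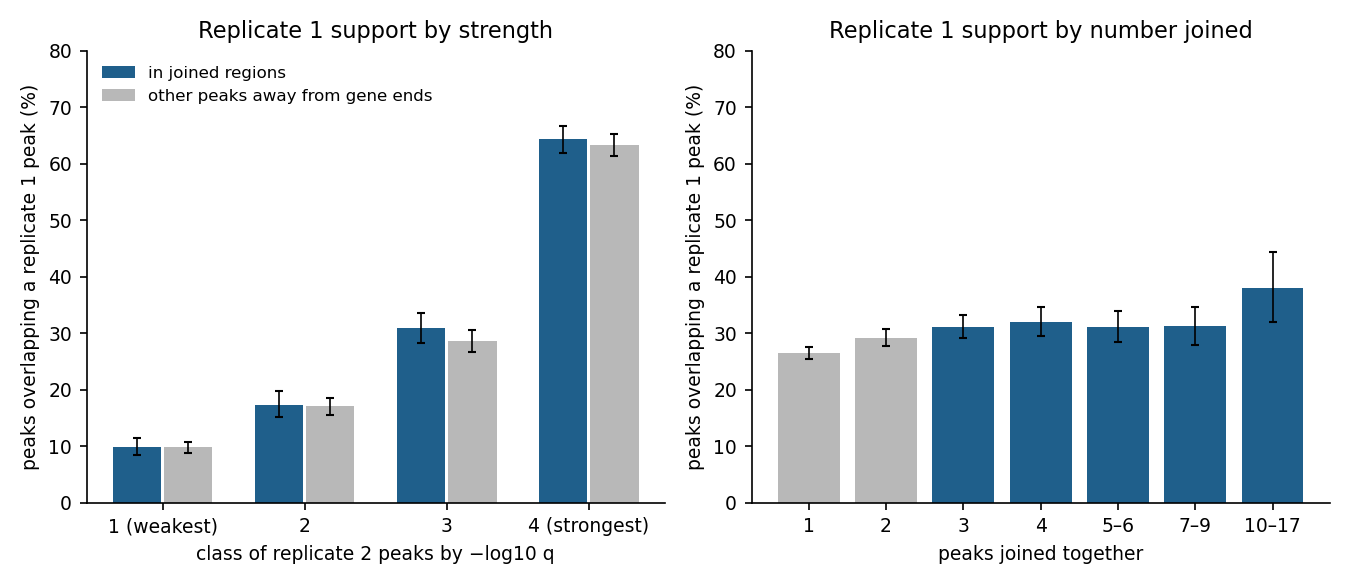
Left, percentage of replicate 2 peaks that overlap a replicate 1 peak (y axis) in 4 classes of −log10 q cut at the quartiles (x axis), for peaks in joined regions (blue) and other peaks away from gene ends (grey). Right, the same percentage by the number of peaks joined together, with lone peaks and pairs in grey. Bars show the share and lines its exact 95% interval. The strongest class reaches 64.4% for members and 63.3% for other peaks, and peaks in regions of 10 to 17 reach 38.0%.

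Overlap varied little among regions of 3 to 9 peaks. It was 26.5% for lone peaks, 29.2% for pairs, 31.2% for regions of 3, 32.0% for regions of 4, 31.1% for 5 to 6 and 31.3% for 7 to 9 peaks. In the 23 regions of 10 or more peaks it was 38.0%, with 97 of 255 peaks (exact interval 32.1 to 44.3%). The strongest peak of each region overlapped replicate 1 in 57.0% of regions, and the remaining peaks in 23.5%. Outside protein-coding genes, 34.1% of member peaks and 27.2% of other peaks had a partner, and inside genes 29.8% and 27.7%. Away from all listed start sites the shares were 30.0% of members and 24.5% of other peaks, and near such sites 48.0% and 50.4%. These splits were not matched for strength.

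Counted by region, 998 of 1355 (73.7%, exact interval 71.2 to 76.0%) held at least 1 peak with a partner, and 173 (12.8%) held 3 or more. The share with at least 1 partner rises with the number of peaks counted. It was 26.5% for lone peaks, 48.9% for pairs, 65.7% for regions of 3 and 95.7% for regions of 10 or more. Joining the replicate 1 peaks by the same rule gave 261 regions, of which 200 (76.6%) overlapped a region of replicate 2. In turn, 200 of the 1355 regions (14.8%, exact interval 12.9 to 16.8%) were built again from replicate 1. These had a median of 4 peaks and 18088 bp, against 3 peaks and 14891 bp for regions not built again. The remaining 1155 regions overlapped no region joined from replicate 1 by this rule, which leaves out replicate 1 peaks at gene ends. Some of them still held several replicate 1 peaks, such as 5 in the region at Evi2. Of all regions, 357 had 0 peaks with a partner, and the median of their highest replicate 2 fold enrichment was 4.78, against 6.38 where a partner was present.

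The regions with the most peaks lay at or near Exoc6, Zfp36l2, Mapkapk2, Fosb, Itgb2 and Litaf. The region with 17 peaks covered 91.6 kb at Exoc6 (chr19:37472400-37564002), which encodes a subunit of the exocyst, the complex that tethers secretory vesicles. Its peaks had fold enrichments from 3.04 to 8.54 in replicate 2, and 6 of them overlapped replicate 1, where the highest reached 5.87. The longest region, 95.3 kb with 14 peaks, ran over Mapkapk2, a kinase gene downstream of p38, Dyrk3 and Eif2d (chr1:131060635-131155932), and 5 of its peaks had a partner. Another region of 14 peaks lay 37551 bp from Zfp36l2 (chr17:84100616-84146373), which encodes a protein that promotes decay of AU-rich messages. Only 1 of these peaks overlapped replicate 1, so its 14 peaks are largely a replicate 2 observation.

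Regions of 12 peaks lay at Fosb and Ercc1, at Itgb2 and Fam207a, and at Litaf. Fosb encodes a subunit of the AP-1 transcription factor and Ercc1 a subunit of a repair nuclease, and 5 of the peaks there had a partner (chr7:19300592-19345595). Itgb2 encodes the shared beta chain of the leukocyte integrins, and 3 of its 12 peaks had a partner (chr10:77515326-77567256). Litaf encodes a lysosomal membrane protein induced by bacterial lipopolysaccharide, and 2 of the peaks had a partner over 74.2 kb. Regions of 11 peaks were found 16549 bp from Ptma, the prothymosin alpha gene, with 5 peaks supported by replicate 1, and at Cd300a and Cd300lb, a pair of myeloid receptor genes, also with 5.

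The regions at Acod1 and Ccr1 were among those with the most replicate 1 support. Acod1 encodes the enzyme that makes itaconate in activated macrophages, and 7 of its 11 peaks over 70.7 kb had a partner (chr14:102995194-103065845). Ccr1 encodes a chemokine receptor of myeloid cells, and 7 of its 10 peaks had a partner (chr9:123923343-123965405). The fold enrichments of those 7 peaks lay between 4.26 and 6.12 in replicate 1 and between 4.25 and 7.74 in replicate 2. Ccr1 and Rhof had the largest summed peak length of the 13 regions tied at 10 peaks, which is how ties were broken. The second of these regions lay at Rhof, a small GTPase gene, and Setd1b, a histone methyltransferase gene, where 3 of 10 peaks had a partner. A region at Sde2 and Lefty2 completed the 5 longest regions, at 63.8 kb with 9 peaks.

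Among the remaining large regions, the following were named after their values were seen. Mcl1 had 10 peaks over 29.5 kb (chr3:95645256-95674740), of which 8 had a partner, and the largest region built from replicate 1 alone, with 9 peaks, lay there. Its strongest replicate 2 peak, at 13.0, was the one over the start site shown above. At Actb, the cytoplasmic actin gene, 6 of 10 peaks had a partner (chr5:142894575-142936970), and the strongest of them had fold enrichments of 6.13 in replicate 1 and 12.8 in replicate 2. The region over Malat1, with 8 peaks (chr19:5786248-5823491), lay 14829 bp from the nearest protein-coding gene, and 4 of its peaks had a partner. Nr4a1, an immediate early nuclear receptor gene, had 7 peaks of which 2 had a partner, the stronger with 5.79 in replicate 1 and 14.4 in replicate 2.

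**Figure D3:**
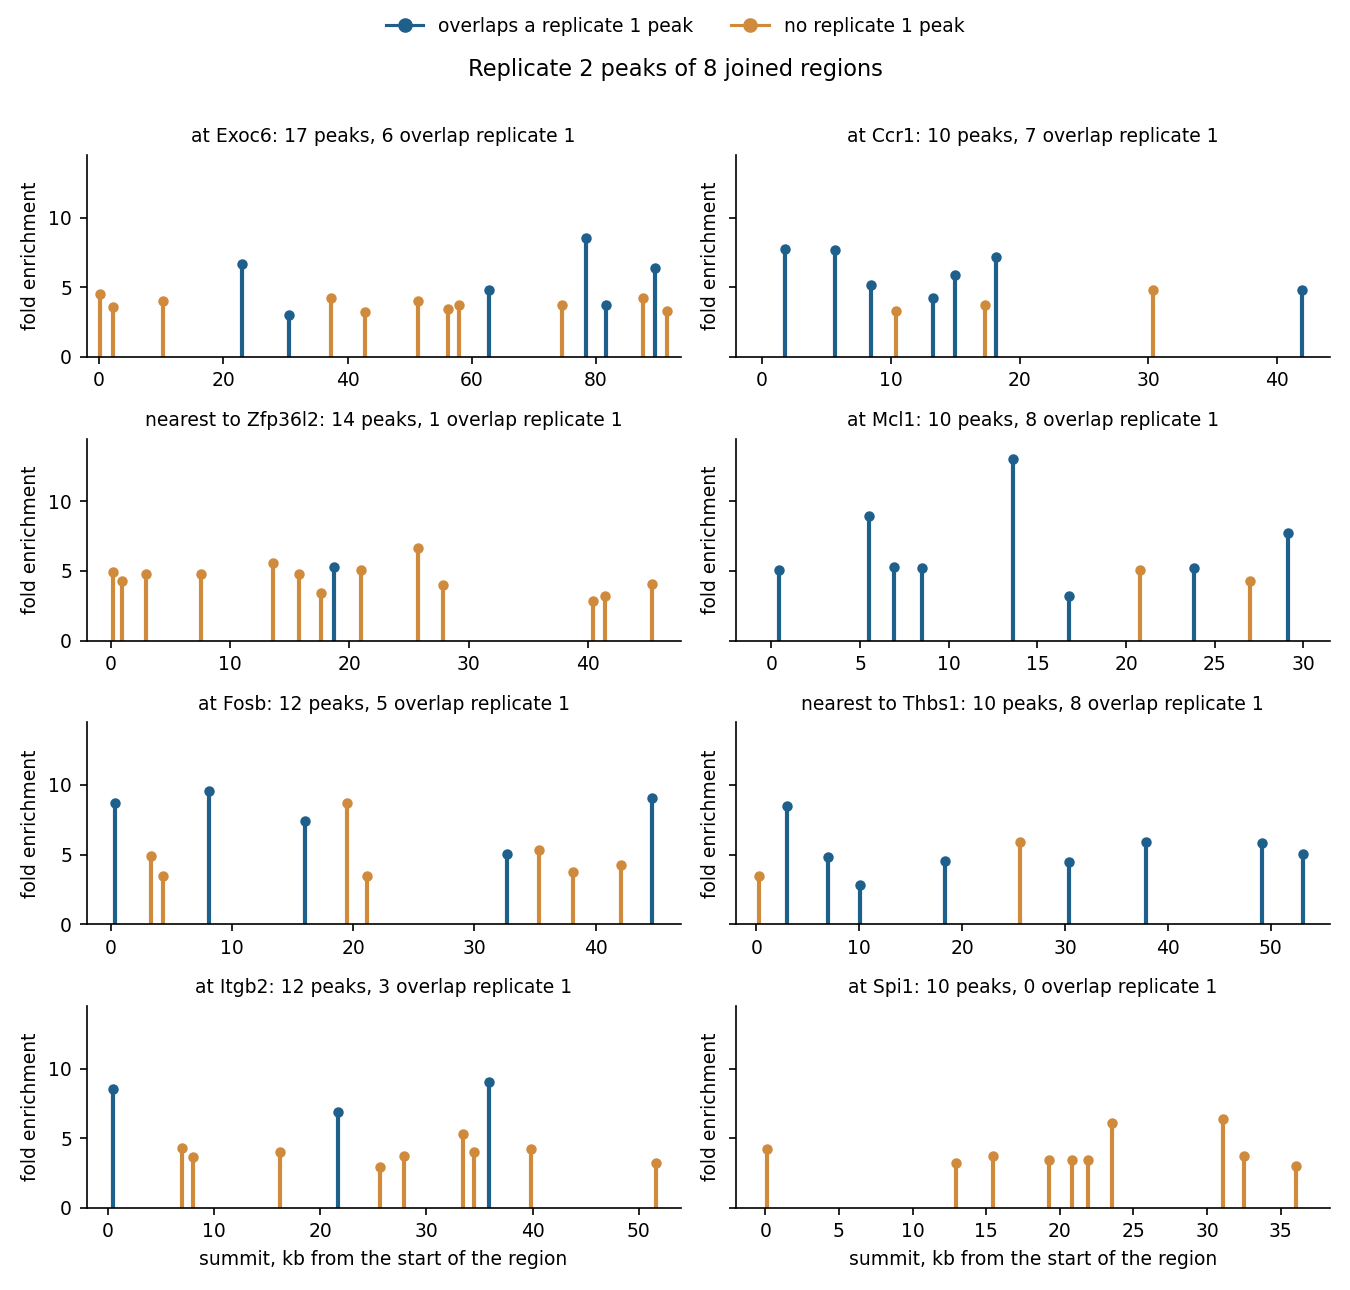
Peaks of 8 joined regions, with the distance of each summit from the start of its region in kilobases (x axis) and the authors' replicate 2 fold enrichment (y axis). Blue marks peaks that overlap a replicate 1 peak and orange those that do not. The regions near Exoc6, Zfp36l2, Fosb and Itgb2 hold 12 to 17 peaks with 1 to 6 blue, those at Ccr1, Mcl1 and nearest to Thbs1 hold 10 with 7 or 8 blue, and that at Spi1 holds 10 with 0 blue.

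Full support and none were found at different genes. Every peak had a partner in 33 regions, of which the largest held 5 peaks and lay at Samhd1, the gene of a nucleotide-hydrolysing enzyme of myeloid cells (chr2:157117241-157139117). It was followed, with 4 peaks each, by regions at Plac8, Zcchc2 and Clec4d, a C-type lectin receptor gene, and 44961 bp from Pag1, which encodes an adaptor of Src-family kinases. No peak had a partner in regions that included those at Spi1 and Slc39a13 (10 peaks), Tle3 (8), Srsf3 (8) and Sh3bp1 with its neighbours (7). Spi1 encodes PU.1, the ETS factor of myeloid and B-lineage cells. Its 10 member peaks had replicate 2 fold enrichments of 2.99 to 6.38 (chr2:91065615-91101947). Replicate 1 had 3 peaks within the same span that touched none of the members, and it had a summit at an end of Spi1 itself.

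The highest replicate 1 fold enrichments inside the regions were in smaller ones. A peak of 12.8 in replicate 1 and 7.25 in replicate 2 lay in the Vmp1 region that holds Mir21a (chr11:86577179-86587612). Vmp1 encodes a membrane protein needed for autophagy. At Slc38a2, an amino acid transporter gene, the 3 peaks all had a partner and the highest reached 10.8 in replicate 1. At Evi2, Evi2a and Evi2b, which lie within the Ras regulator gene Nf1, all 3 peaks had a partner and the highest reached 9.37.

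Genes coding for transfer RNAs (tRNAs) were frequent under the regions, a count made after the values were seen. Of 391 annotated autosomal tRNA genes, 101 (25.8%) lay in 25 regions, and 82 lay under a member peak. A tRNA gene was touched by 51 member peaks (0.918%) and by 37 other peaks away from gene ends (0.344%). Of these, 37 member peaks (72.5%) and 31 other peaks (83.8%) overlapped replicate 1. The region of 11 peaks assigned to Fcgr3, an immunoglobulin receptor gene (chr1:171033065-171074594), held 15 tRNA genes, and 5 of its peaks touched them, including its strongest, at 6.45 in replicate 1 and 10.9 in replicate 2. Other such regions were near Btn1a1 (8 peaks, 7 touching tRNA genes), Prss16 (7 peaks, 5 touching) and Trim27 (6 peaks, 4 touching), all on chromosome 13. tRNA genes are near-identical copies, so the position of these peaks is uncertain where reads could be placed at several copies.

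Regions sat at and within genes more often than between them. Of the 1355 regions, 812 (59.9%) overlapped a single protein-coding gene, 176 (13.0%) overlapped 2 or more, and 367 (27.1%) overlapped none. Those 367 were a median of 12306 bp from the nearest gene, and the farthest was 282867 bp away. Wholly inside a single gene were 486 regions (35.9%). Member summits lay inside protein-coding genes in 55.9% of cases and other summits in 57.0%. A replicate 2 peak at a gene end lay within the span of 332 regions (24.5%). Chromosome 11 held the most regions, 148, and 41.4% of its peaks away from gene ends were members, against 27.7% to 38.1% on the other autosomes.

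In all, 1438 of 20665 protein-coding genes (6.96%) were at a joined region, which means that a region overlapped them or, where it overlapped no gene, that they were nearest to it. Their median length was 30.1 kb, against 16.8 kb for genes at no region, and the share at a region was 3.14% in the shortest of 4 equal classes of genes and 10.9% in the longest. Of the 1438 genes, 728 (50.6%) had a replicate 1 summit at an end, against 33.0% of genes at no region and 34.2% of all genes. The region peaks themselves were not counted in this, since they are replicate 2 peaks away from gene ends. A replicate 1 peak with its summit at a gene end could still be the partner of a member peak, so this measure and support are not separate. The part of gene length in the difference between genes at a region and genes at none was not tested.

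Gene lists of blood lineages, signalling, the actin skeleton and other tissues were described next, without a test, because they were chosen with earlier results of these data known. The lists share some members, so their shares are not separate observations. A listed gene counted at a region could be only its nearest gene, up to 205010 bp away. The same lists were also read against the 261 regions joined from replicate 1, at which 1.34% of all protein-coding genes lay. Replicate 1 did not enter the selection of the replicate 2 regions, but the lists cannot be taken as chosen independently of it. The share of genes at a replicate 2 peak away from gene ends outside the regions was 29.4% for all genes. On this measure signalling genes had 68.2%, dendritic cell genes 61.1%, stem and progenitor genes 59.2%, actin and adhesion genes 56.3%, neutrophil, monocyte and macrophage genes 52%, T and NK cell genes and megakaryocyte genes 50% each, and B cell genes 44%. Pore genes had 40%, erythroid genes 34.3%, ribosomal protein genes 31.7%, mast cell genes 31.6%, neuronal genes 25%, liver genes 15% and muscle genes 5%.

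Signalling and negative feedback genes had the highest share, 24 of 44 (54.5%), with 8 of 44 (18.2%) at a replicate 1 region. The group held phosphatases of the MAP kinase pathway (Dusp1, Dusp5, Dusp6), inhibitor and subunit genes of NF-kappaB (Nfkbia, Nfkb1), the cytokine signal carriers Stat3 and Stat5b, and the antiproliferative genes Btg1 and Btg2. Of these named genes, only Stat5b was at a replicate 1 region, and the regions of Nfkbia and Nfkb1 had 0 supported peaks. Dusp5, Dusp6, Nfkbia and Btg2 overlapped no region and were only the nearest gene. Their distances were 63662 bp, 10616 to 191925 bp, 22739 bp and 7284 bp. The 8 at a replicate 1 region were Stat5a, Stat5b, Bcl6, Vav1, Ptpn6, Ptprc, Syk and Inpp5d. Of the 29 regions at the signalling genes, 24 (82.8%) held a peak with a partner, beside 73.7% of all regions. Of their 137 peaks, 43 (31.4%) had a partner, close to the 31.7% of all member peaks. The region at Inpp5d, the SHIP1 phosphatase gene that opposes PI3 kinase, had 10 peaks with 3 supported (chr1:87607929-87659757). Syk, a kinase of immune receptors, had 2 regions of 6 peaks each, with 3 and 2 supported. Gadd45b, a stress response gene, had 6 peaks with 1 supported.

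Of 32 actin and adhesion genes, 16 (50%) were at a region and 5 (15.6%) at a replicate 1 region. All 17 regions at these genes held at least 1 peak with a partner, beside 73.7% of all regions, a share that rises with the number of peaks. Of their 102 peaks, 32 (31.4%) had a partner, close to the 31.7% of all member peaks. Besides Actb and Itgb2, the genes at a region included Lcp1, the L-plastin gene of leukocytes, with 9 peaks of which 2 had a partner. Rac2, the blood-cell Rac GTPase gene, was in a region of 8 peaks shared with Cyth4. Wipf1, Dock8 and Coro1a, genes of actin assembly in immune cells, had 8, 7 and 3 peaks, with 1, 2 and 1 supported.

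Among 49 stem and progenitor genes, 18 (36.7%) were at a region and 6 (12.2%) at a replicate 1 region. The 18 included many transcription factors of early blood formation: Runx1, Tal1, Lmo2, Lyl1, Erg, Fli1, Etv6, Myb, Ikzf1, Gfi1 and Spi1. Of these factors, only Fli1, Etv6 and Myb were among the 6 at a replicate 1 region, beside Cd34, Cxcr4 and Hhex. The 24 regions at the 18 genes held 111 peaks, of which 27 (24.3%) had a partner, beside 31.7% of all member peaks. The region in Erg had 8 peaks within 17.2 kb, of which 1 had a partner, with replicate 2 fold enrichments up to 4.25. Etv6 had 7 peaks in 1 region, 3 of them supported by 2 replicate 1 peaks, and 3 peaks with 0 supported in another. The regions at Tal1 and Hoxa9, and the first of those at Runx1 and Myb, had 0 supported peaks. Cxcr4, the receptor that holds stem cells in marrow, was nearest to 2 regions of 4 peaks, with 3 and 2 supported. Of the 18 genes, 6 had a replicate 1 summit at an end (33.3%), against 50.6% of all genes at a region and 34.2% of all genes.

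Of 50 neutrophil, monocyte and macrophage genes, 17 (34.0%) were at a region and 6 (12%) at a replicate 1 region. These 6 included S100a8, Ltf, Ncf4, Fos and Jun. All 6 were also at a replicate 2 region, against 4 of 6 for the stem and progenitor genes, 3 of 5 for the actin and adhesion genes and 7 of 8 for the signalling genes, but the regions need not be the same place. The replicate 2 region nearest to Jun, 104384 bp away, had 4 peaks with 0 supported and 0 replicate 1 peaks in its span. S100a8, which encodes a subunit of calprotectin, had 6 peaks of which 5 had a partner (chr3:90659333-90687286), with replicate 1 fold enrichments from 3.84 to 4.67. Ltf, the lactoferrin gene, had 3 peaks that all had a partner. Cebpb and Cebpe, factors of granulocyte differentiation, had 1 supported peak each of 7 and 3, and Mmp9 and Cebpa had 0 of 7 and 0 of 3. The list also counts Fcgr3, whose region holds the tRNA genes described above. It counts Fos and Jun too, AP-1 subunit genes that are not particular to these cells. Spi1 and Gfi1 are shared with the stem and progenitor list.

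Megakaryocyte and platelet genes had 6 of 24 (25%) at a region and 3 of 24 (12.5%) at a replicate 1 region. Of the 6, Fli1 and Runx1 are also in the stem and progenitor list, and Nfe2 is also in the erythroid list. A region of 10 peaks lay 99117 bp from Thbs1, the thrombospondin gene, which is its nearest protein-coding gene (chr2:117959030-118012759). Of these peaks 8 had a partner, with replicate 1 fold enrichments from 3.10 to 6.91 and replicate 2 fold enrichments from 2.83 to 8.50, which makes it the most supported of the gene-free regions with 10 peaks or more. A second region, 180460 bp from Thbs1, had 4 peaks with 3 supported. Nfe2, a factor of platelet formation and erythroid cells, had 4 peaks that all had a partner, with values up to 4.67 in replicate 1 and 4.78 in replicate 2. The Fli1 region had 4 peaks with 2 supported.

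Other lineages and tissues had lower shares. Of 35 erythroid genes, 3 (8.57%) were at a region, namely Tal1, Nfe2 and Bcl11a, a factor that silences fetal globin. Dendritic cell genes had 2 of 18 (11.1%), mast cell and basophil genes 2 of 19 (10.5%), T and NK cell genes 4 of 38 (10.5%) and B cell genes 2 of 25 (8%). Id2, counted in both the dendritic and the T and NK lists, was only nearest to its region, 204984 bp away with 0 supported peaks. At the replicate 1 regions, where all genes had 1.34%, erythroid genes had 2 of 35 (5.71%), dendritic cell genes 1 of 18 (5.56%), mast cell and basophil genes 1 of 19 (5.26%) and ribosomal protein genes 1 of 60 (1.67%), while T and NK cell, B cell, neuronal, liver and muscle genes had 0. The mast cell pair was Hdc, the histamine-synthesising enzyme gene, with 8 peaks of which 2 had a partner, and Cd200r3 with 3 and 4 peaks in 2 regions. Neuronal genes had 0 of 28 although their median length was 70.9 kb, and liver genes had 0 of 20. Skeletal and heart muscle genes had 1 of 20, Tnni3, in a region of 5 peaks over 4 genes. Of 60 cytosolic ribosomal protein genes, 3 (5%) were at a region. Among these 3, Rpl14 and Rplp1 were only the nearest gene, 2473 and 205010 bp away. The median length of the 60 genes was 3.31 kb, and the share in the shortest of 4 equal classes of genes was 3.14%.

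**Figure D4:**
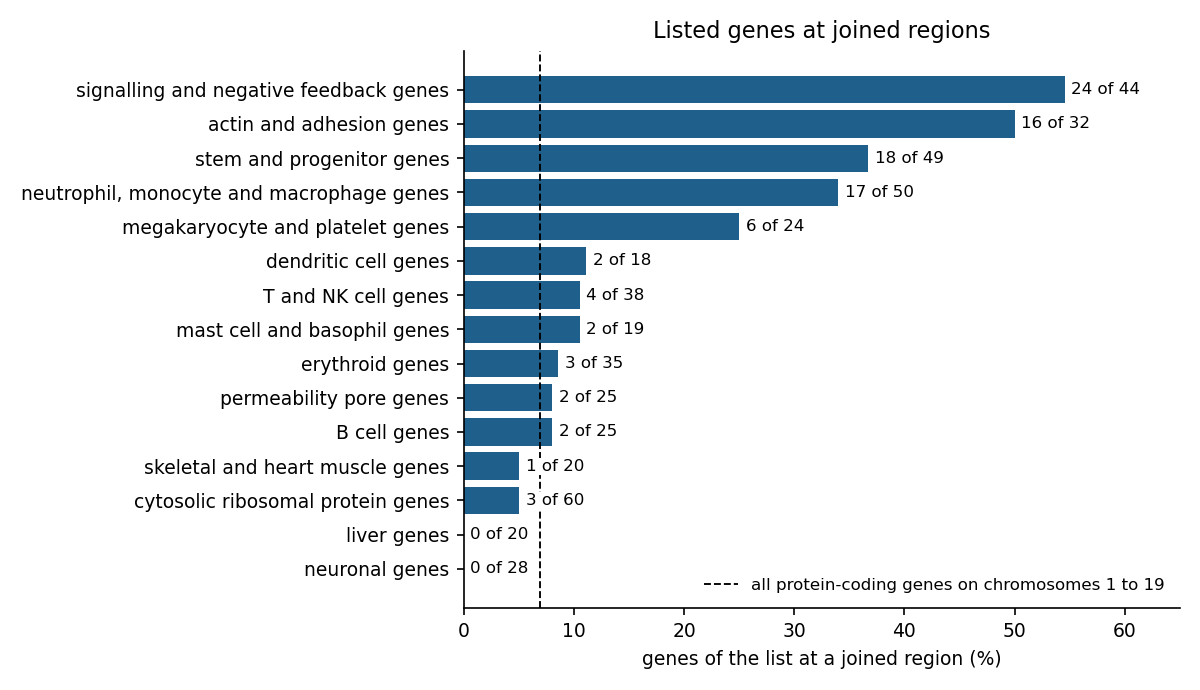
Percentage of the autosomal genes of each list that were at a joined region (x axis), with the counts printed beside the bars. Some genes are in several lists. The dashed line marks all protein-coding genes, at 6.96%. Signalling, actin, stem and progenitor, myeloid and megakaryocyte lists reach 25% or more, the other lists lie between 0 and 11.1%, and neuronal and liver genes have none.

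The mitochondrial permeability transition pore is the subject of the series title, and of 25 autosomal genes proposed to form or regulate it, 2 (8%) were at a joined region, close to the 6.96% of all genes. None was at a replicate 1 region. A region of 3 peaks lay 9462 bp from Vdac1, the gene of an outer-membrane channel, and 0 of its peaks had a partner. At Hk2, which encodes a hexokinase that binds that membrane, 2 of 4 peaks had a partner (chr6:82763736-82781218), with up to 3.84 in replicate 1 and 5.85 in replicate 2.

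Some genes were assigned several regions. In all, 126 genes were at more than 1 region and 14 at 3. Irf2bp2, which encodes a corepressor, had 9, 5 and 3 peaks in regions that overlapped it, lay 89846 bp away and lay 127365 bp away, and only the first held supported peaks (3). The 3 regions nearest to Dusp6 lay 10616, 157900 and 191925 bp from it with 2 supported peaks each, of 4, 4 and 3. Zfp217, a zinc finger gene, had regions of 4, 8 and 3 peaks with 2, 3 and 1 supported. At Dusp6 the strongest replicate 1 peak, 5.47, was in the farthest region. Distance to the nearest gene does not show which gene a region acts on, and no measurement of that was used here.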

How the data were processed

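Flag ChIP-seq peak lists of 2 libraries were used, 1 per replicate. Per the submitters' processing notes, MACS2, Bowtie2, Trimmomatic, cutadapt, FastQC and ChIPseeker were used on mm10, with no versions named. The control and the cutoff of the peak calls are not given in the sources used here. In the deposited −log10 q column the lowest values are 1.31 (replicate 1) and 1.30 (replicate 2). The authors deposited for each peak a fold enrichment (a linear ratio over the caller's background), the −log10 p and −log10 q of the caller, and a score, which was not used. Depth is unknown, since peak lists hold no counts.

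Gene bounds (GRCm38.p6, the assembly behind mm10), start sites, promoters and microRNAs were those of RefSeq. No genome sequence was used, so peak sequences are not shown. A peak was supported when a replicate 1 peak overlapped it by 1 bp or more. Any autosomal replicate 1 peak counted, also one with its summit at a gene end. The same replicate 1 peak could support more than 1 member, so supported peaks can outnumber their partners. Shares carry exact Clopper-Pearson 95% intervals, and no significance test was made. Regions were named by a rule: the 12 with most peaks (ties by summed peak length), the 5 longest, the 5 largest with every peak and with no peak supported, the 3 with the highest replicate 1 fold enrichment, and up to 4 per gene list. Others are said to be chosen after their values were seen. A few genes and regions picked by this rule are not reported here. The members and the 15 gene lists were chosen with earlier results of these data known. Joining, distances and overlaps were tested on simulated data. Alternatives changed the joining distance, the gene ends, the number of peaks, the cutoff, the overlap and the replicate. Calculations used Python 3.11.15, numpy 2.4.6, pandas 2.3.3, scipy 1.17.1 and matplotlib 3.10.9.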

Additional observations from a re-analysis of the deposited data

How the results depend on the processing

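No paired analysis was possible because the results come from no test and the groups are not compared across replicates. Joining within 5000 bp gave 688 regions (median span 7255.5 bp, 636 genes, 11.5% built again from replicate 1), and joining within 25000 bp gave a median span of 29651.5 bp, 2536 genes, 76.3% of regions with a supported peak and 21.0% built again. A distance of 3000 bp from gene ends gave a median span of 14063 bp and 900 genes, and not joining across gene ends a median span of 12787 bp. Requiring 4 peaks gave 672 regions (20731 bp, 784 genes, 81.7% with support, 11.0% built again), and requiring 5 gave 346 (26896.5 bp, 446 genes, 87.6%, 6.94%). With both lists cut at a −log10 q of 5, there were 362 regions (14687.5 bp, 400 genes), 27.7% of peaks and 66.6% of regions were supported, and 6.35% were built again. Replicate 1 then also holds fewer peaks. An overlap of 50% of both peaks supported 16.6% of peaks and 50.1% of regions, and summits within 200 bp 22.2% and 61.2%. Leaving out replicate 1 or replicate 2 gave 261 to 1355 regions, a median span of 12547 to 15290 bp and 276 to 1438 genes. The regions of replicate 1 had 85.2% of peaks and 98.9% of regions supported by replicate 2, and 76.6% overlapped a replicate 2 region. The cause of these moves was not tested beyond each setting's own construction. Using the ends of every annotated gene moved none of the 6 results by more than its error or, for counts, 1.5 times. The unknown depth and the differing list lengths limit what an absent partner shows.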

Other observations

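Joined regions were also formed where the description above did not look. On chromosome X, 86 replicate 2 peaks lay away from gene ends and formed 2 regions by the same rule, of 3 peaks 1941 bp from Vsig4, a complement receptor gene of macrophages, and of 4 peaks at Mid1, with 1 supported peak each. On chromosome Y there were 4 such peaks and 0 regions. Of the 261 regions joined from replicate 1, 61 overlapped no replicate 2 region. The largest of them had 5 peaks and lay at Sgk1, a kinase gene induced by serum and glucocorticoids, with fold enrichments up to 3.78. Regions of 4 peaks lay at Med29 (up to 5.79), Rbpj, the transcription factor gene of the Notch pathway (up to 4.003), and Slc7a11, a cystine transporter gene (up to 5.68). The region of 3 peaks at Rabepk reached 10.2 in replicate 1.

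Small nuclear RNA genes were touched by 19 member peaks (0.342%), of which 15 overlapped replicate 1, against 10 other peaks away from gene ends (0.093%), of which 9 did. Long noncoding RNA genes were touched by 15.8% of member peaks and 13.9% of other peaks, and pseudogenes by 0.450% and 0.540%. These counts were made after the values were seen and were not tested.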
